A study of Mus musculus with 9 samples.

Results

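The genes described here are 9 components and regulators of the mTOR kinase complexes, namely Mtor, Rptor, Rictor, Tsc1, Tsc2, Rheb, Ddit4, Sesn2 and Depdc5. They were chosen by name, and all 9 of them were present among the 13499 genes of the deposited table. RNA was sequenced from mouse embryonic stem (ES) cells of the C57BL/6 strain, kept on gelatine-coated plates in a medium labelled 2xLIF SR-ES then separated by flow sorting on fluorescence, which reported Myc through GFP-Myc or EYFP. The sorted populations are named High, Medium and Low by their Myc level, with 3 libraries each, described in the labels as biological replicates. Which of these reporters a given library carried is not labelled, no treatment or time is given, and nothing says whether the replicates came from separate cultures, so the p-values measure the spread between these libraries.

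mTOR is a kinase that promotes protein synthesis and cell growth in response to nutrients and growth factors. With the scaffold Raptor (Rptor) it forms mTORC1, and with Rictor it forms mTORC2, a second complex that phosphorylates AKT. The small GTPase Rheb activates mTORC1 on the lysosome, and the complex of TSC1 and TSC2 holds Rheb in its inactive form. A pair of stress-induced proteins acts against mTORC1: DDIT4 (also called REDD1) works through the TSC complex, and SESN2 (Sestrin 2) is a leucine sensor that restrains GATOR2, an inhibitor of GATOR1. DEPDC5 is a subunit of GATOR1, which switches off the Rag GTPases that bring mTORC1 to the lysosome. In pluripotent cells mTOR activity is known to support proliferation.

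The bases upstream of the annotated exons, for the genes with the largest decrease and the largest increase that passed between High and Low, Ddit4 and Rptor, are shown together with a stretch around the 1 E-box match, in Rheb. They are RefSeq sequences on GRCm38.p6, written 5′ to 3′ on the gene's own strand. They cover chr10:59951835-59952020 for Ddit4 on the minus strand, chr11:119602655-119602904 for Rptor on the plus strand, and chr5:24842440-24842469 for Rheb on the minus strand. The Rheb stretch lies before the RefSeq start but inside the gene as annotated in GENCODE M21, from 24802823 to 24842624.
Ddit4: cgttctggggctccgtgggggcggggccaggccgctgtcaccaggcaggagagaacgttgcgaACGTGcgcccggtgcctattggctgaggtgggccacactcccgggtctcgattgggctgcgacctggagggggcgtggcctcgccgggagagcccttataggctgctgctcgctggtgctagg
Rptor: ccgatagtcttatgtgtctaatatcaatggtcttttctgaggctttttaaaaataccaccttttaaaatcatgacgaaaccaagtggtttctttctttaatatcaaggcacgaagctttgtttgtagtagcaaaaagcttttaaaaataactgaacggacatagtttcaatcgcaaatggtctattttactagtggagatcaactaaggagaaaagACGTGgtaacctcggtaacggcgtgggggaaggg
Rheb: gccgcgcgcggtCACGTGggtgtgttgttg
Capitals mark the motifs searched on both strands of the 250 bases before each RefSeq start. These were the E-box CACGTG, a sequence that Myc and related factors bind, the hypoxia response core ACGTG, which every CACGTG also contains, and TGATGNAA, a composite site of ATF4 and C/EBP factors. CACGTG was found in 1 of the 9 member promoters, that of Rheb, against 6.02% of 32851 promoter windows of the same length. ACGTG was found in Ddit4, Rptor and Rheb, against 16.6% of all windows. TGATGNAA was found in 0 of the 9, against 3.45% of all windows. A match describes these letters and is not a site of binding.

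Each library held between 11114936 and 16755566 whole reads recovered from the deposited values, which are read counts the authors scaled to nearly the same total in every library. Myc RNA averaged 106 ± 5.71 normalized counts in High, 67.1 ± 2.54 in Medium and 26.04 ± 1.75 in Low (SD, n = 3 each), which checks the labels. All 8 ES cell markers examined were detected, with summed levels of 5203 to 5931 in High, 4961 to 5618 in Medium and 4273 to 5657 in Low. Of these 8, 4 were higher in High than in Low and 0 lower, beside 13.8% and 14.6% of all genes. Tdgf1 was 1.63-fold higher (limma adjusted p = 0.000245) and Esrrb 1.45-fold higher (0.00354). The calls for Klf4 and Zfp42 were lost in 2 and 5 of the 9 fits that left out a library. The marker sums of other lineages were far lower, but not every gene was. Sparc, listed for primitive endoderm, averaged 428 in High, above Klf4 (146) and Zfp42 (82.7). The sums for trophoblast and primitive endoderm moved with the sort, in opposite directions. For trophoblast, the 9 of 11 markers that were measured summed to between 137 and 145 in High, 227 and 247 in Medium and 482 and 590 in Low. Of 8 primitive endoderm markers 3 were measured, of which Sparc and Sox7 were higher and Dab2 lower in High than in Low. Their sum, nearly all of it Sparc, was 428 to 442 in High, 338 to 361 in Medium and 221 to 237 in Low. Fibroblast and feeder markers, 7 of 9 measured, summed to 32.5 to 47.5 in High, 43.2 to 67.5 in Medium and 32.6 to 46.9 in Low. The part of these lineages in the differences below was not tested. The Low libraries differed most among themselves. The median log2 difference between genes with long transcripts (upper quartile, at least 4730 nt) and short ones (lower quartile, at most 2100 nt), each gene taken from its own mean, was 0.28 in Low replicate 1, -0.59 in Low replicate 2 and -0.27 in Low replicate 3. In the other 6 libraries it ran from -0.07 to 0.30. This bears on the mTOR genes, since 6 of the 9 have long transcripts, from 6266 nt in Tsc2 to 9312 nt in Rictor, against a median of 3288 nt over all genes.

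Ddit4 was the member that changed most. It stood at 8.91, 11.02 and 14.2 normalized counts in the High libraries (replicates 1 to 3), at 23.2, 20.4 and 21.9 in Medium and at 55.8, 43.3 and 49.7 in Low. These values rest on 124 to 177 reads per library in High and 484 to 793 in Low. No library of any population overlapped another population, and the 3 populations were ordered against Myc level. Ddit4 (ENSMUSG00000020108) lies on chromosome 10 from 59949669 to 59951834 on the minus strand (GRCm38), with a longest transcript of 1755 nt. Its RNA was 4.35-fold lower in High than in Low, with a log2 fold change of -2.04 (SE 0.16, 95% interval -2.39 to -1.69; limma adjusted p = 2.46e-05). In bulk RNA, fewer cells with a transcript and less of it per cell cannot be told apart.

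Sesn2, the other stress-induced inhibitor, moved in the opposite direction. It was at 109, 113 and 119 normalized counts in High, at 113, 105 and 110 in Medium and at 96.8, 75.9 and 92.8 in Low. High and Medium overlapped, and all libraries of both lay above those of Low. High exceeded Low 1.28-fold (log2 fold change 0.36, SE 0.10; limma adjusted p = 0.0214). The call was lost after rescaling all libraries to an equal total (adjusted p = 0.0541), with quantile normalization (0.0773), in a fit of these 2 populations alone (0.0538), without High replicate 2 (0.0639) or 3 (0.0809) and without Low replicates 1 and 2 together (0.0569), while the fold change stayed above 0 under every alternative run. Sesn2 (ENSMUSG00000028893) lies on chromosome 4 from 132492032 to 132510501 on the minus strand.

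**Figure D1:**
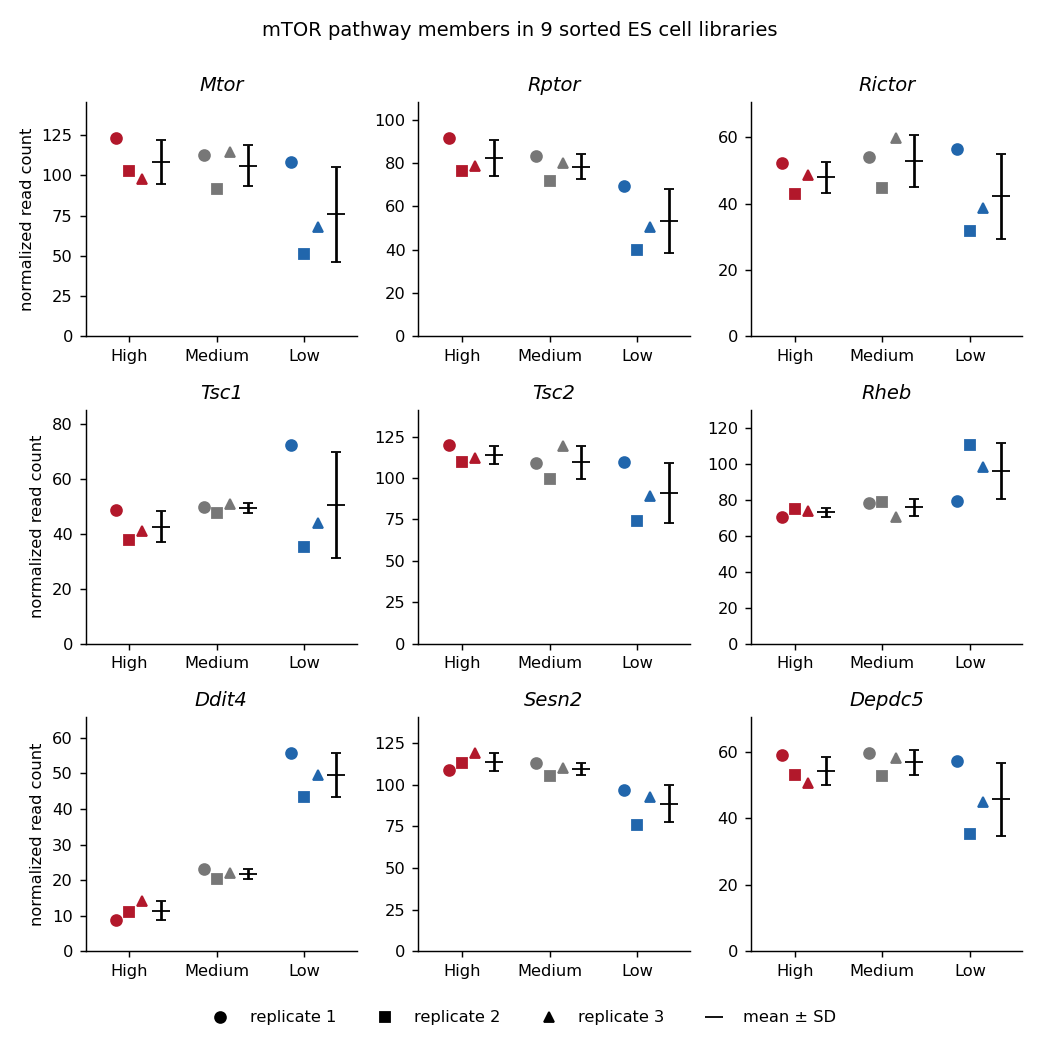
Normalized read count of each of the 9 genes (y axes, starting at 0) in every library of the High, Medium and Low populations. Coloured points are replicates 1 to 3 and black bars show the mean and SD (n = 3). Ddit4 fell to 11.4 ± 2.68 in High, against 49.6 ± 6.25 in Low. Low replicate 1 lay above the other Low libraries for 8 of the 9 genes and below them for Rheb.

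Because longer transcripts yield more reads, levels were compared between genes as normalized counts per kb of longest transcript. In High, Sesn2 had the highest level of the 9, at 32.6 ± 1.51 per kb. Tsc2 followed at 18.2 ± 0.840 and Rheb at 18.1 ± 0.620, which overlapped. Mtor at 12.6 ± 1.60 and Rptor at 12.5 ± 1.27 also overlapped, as did each neighbouring pair among Depdc5 (6.59 ± 0.519), Ddit4 (6.49 ± 1.53), Tsc1 (5.54 ± 0.732) and Rictor (5.14 ± 0.499). In Medium, Ddit4 ranked 4 at 12.4 ± 0.786 per kb, within the range of Mtor and above Depdc5, Tsc1 and Rictor. In Low, Ddit4 ranked 1 at 28.3 ± 3.56 per kb, ahead of Sesn2 at 25.5 ± 3.19 and Rheb at 23.8 ± 3.84, and each of these overlapped its neighbour. Rictor had the lowest mean in all 3 populations.

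**Figure D2:**
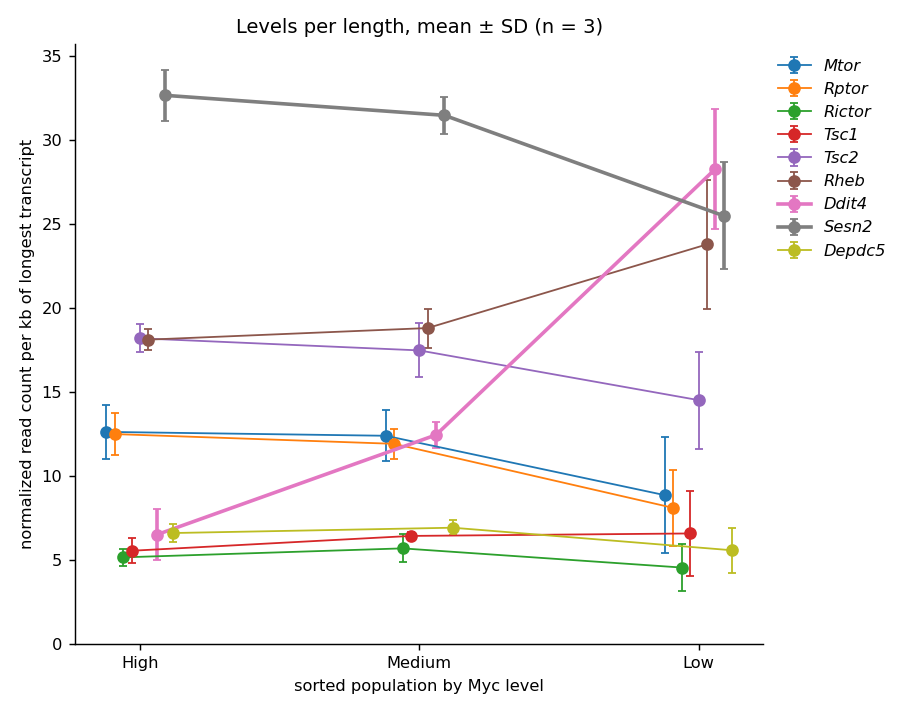
Normalized read count per kb of longest transcript (y axis, mean ± SD, n = 3) of the 9 genes in High, Medium and Low. Ddit4 lay at 6.49 per kb in High, 12.4 in Medium and 28.3 in Low, while Sesn2 lay at 32.6, 31.4 and 25.5 in the same populations.

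Between the ends of the Myc range, 2 of the 9 genes were higher in High (Rptor and Sesn2), 2 were lower (Rheb and Ddit4) and 5 did not pass (limma, adjusted p under 0.05 over all genes). Over all 13499 genes 28.4% passed in this comparison, 13.8% as higher and 14.6% as lower, so the share of 4 in 9 is to be read beside that. The median log2 fold change of the 9 was 0.26, against -0.00025 over all genes. That median, the value of Depdc5, depended on the fit. It was 0.04 after a correction for transcript length, 0.09 without Low replicate 2 and 0.43 without Low replicate 1, with Depdc5 in the middle each time. The libraries of High and Low did not overlap for the same 4 genes, against 41.6% of all genes (20.2% as higher, 21.4% as lower). With the replicate number as a block, 6 of the 9 passed, beside 38.8% of all genes. Without Low replicate 1, 8 of the 9 passed, beside 43.1% of all genes. The count was 2 without High replicate 1, 2 or 3, beside 18.6% to 19.5% of all genes, and 2 without Low replicate 3, beside 17.0%.

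Of the kinase and its scaffolds, only Rptor passed. Rptor (ENSMUSG00000025583), on chromosome 11 from 119602905 to 119899576, encodes the scaffold that presents substrates to mTORC1. It was at 91.9, 76.3 and 78.8 normalized counts in High, at 83.4, 71.8 and 80.1 in Medium and at 69.4, 39.9 and 50.7 in Low. Every High and Medium library lay above every Low library. High exceeded Low 1.54-fold (log2 fold change 0.65, SE 0.17; limma adjusted p = 0.0199), but leaving out High replicate 1 (adjusted p = 0.0745) or Low replicate 3 (0.0683) ended the call. With Low replicate 2 left out the log2 fold change was 0.46 (adjusted p = 0.0426). The exons of Rptor share 84 bases with Rptoros, an antisense gene on the opposite strand that is not among the measured genes. The use of strand is not given, so reads in that stretch cannot be assigned to either gene.

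Mtor, the kinase itself, was at 124, 103 and 97.6 normalized counts in High, at 112, 91.2 and 115 in Medium and at 108, 51.0 and 67.7 in Low. Low replicate 1 lay inside the High range, and the other Low libraries lay below it. The log2 fold change of High against Low was 0.57 (95% interval 0.05 to 1.08; limma adjusted p = 0.0926), which did not pass. It passed with the replicate number as a block (adjusted p = 0.0184), after a correction for transcript length (log2 fold change 0.33, adjusted p = 0.0287) and without Low replicate 1 (0.86, adjusted p = 0.00128). Without Low replicate 2 it was 0.32 (adjusted p = 0.265). Mtor (ENSMUSG00000028991) lies on chromosome 4 from 148448611 to 148557683, with a longest transcript of 8564 nt.

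Rictor (ENSMUSG00000050310), the scaffold of mTORC2 on chromosome 15 from 6708379 to 6800401, was at 52.2, 42.9 and 48.6 normalized counts in High, at 54.1, 44.6 and 59.9 in Medium and at 56.5, 31.7 and 38.6 in Low. The 3 populations overlapped. The log2 fold change of High against Low was 0.21 (95% interval -0.22 to 0.64; limma adjusted p = 0.44), and it turned to -0.05 after the length correction (adjusted p = 0.643). Without Low replicate 1 it was 0.44 and passed (adjusted p = 0.0268), and without Low replicate 2 it was 0.03 (adjusted p = 0.917).

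The ratio of Rptor to Rictor sets the mTORC1 scaffold against the mTORC2 scaffold within each library, where the library's scaling cancels. It was 1.76, 1.78 and 1.62 in High, 1.54, 1.61 and 1.34 in Medium and 1.23, 1.26 and 1.31 in Low. All High libraries lay above all Medium libraries, and all Medium libraries above all Low libraries. The gaps were narrow, at 1.62 in High against 1.61 in Medium, and 1.34 in Medium against 1.31 in Low. The mean log2 ratio was 0.78 ± 0.07 in High and 0.34 ± 0.05 in Low (SD, n = 3 each), a difference of 0.44. The two-sided exact permutation test returned p = 0.1, which is the lowest this design of 3 and 3 can reach. The difference ran from 0.42 to 0.48 when each High or Low library was left out in turn. The transcript length trend of a library need not cancel in the ratio, since the longest transcripts are 6594 nt (Rptor) and 9312 nt (Rictor). After the length correction the difference was 0.56 (exact permutation p = 0.1).

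Rheb, the GTPase that activates mTORC1, was lower in High. It was at 70.4, 75.1 and 74.2 normalized counts in High, at 78.2, 79.2 and 70.6 in Medium and at 79.7, 111 and 98.2 in Low. Low replicate 1 was the lowest of its population and lay close to Medium. High was 1.31-fold lower than Low (log2 fold change -0.38, SE 0.11; limma adjusted p = 0.0349). The call was lost without any of the High libraries, without Low replicate 2 or 3, and in a fit of these 2 populations alone, with adjusted p from 0.0715 to 0.114. The direction held under every alternative run. Rheb (ENSMUSG00000028945) lies on chromosome 5 from 24802823 to 24842624 on the minus strand.

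Neither of the TSC subunits, which act together against Rheb, passed between High and Low. Tsc2 was at 120, 110 and 112 normalized counts in High, at 109, 99.3 and 120 in Medium and at 110, 73.9 and 88.9 in Low. Low replicate 1 reached the High range, so the populations overlapped. Its log2 fold change of High against Low was 0.34 (95% interval 0.04 to 0.64; limma adjusted p = 0.0843), and it passed with the replicate block (adjusted p = 0.0246), after the length correction (0.21, adjusted p = 0.0221) and without Low replicate 1 (0.48, adjusted p = 0.00432). Without Low replicate 2 it was 0.20 (adjusted p = 0.237). The exons of Tsc2 (ENSMUSG00000002496), on chromosome 17 from 24595816 to 24632630 on the minus strand, share 693 bases with Pkd1 on the opposite strand. The use of strand is not given in the sources used here, so reads of Tsc2 and Pkd1 in that stretch cannot be told apart. Pkd1 had a log2 fold change of 0.47 (adjusted p = 0.333).

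Tsc1 (ENSMUSG00000026812), on chromosome 2 from 28641228 to 28691167, was at 48.9, 37.9 and 41.2 normalized counts in High, at 49.96, 47.6 and 50.8 in Medium and at 72.4, 35.3 and 44.0 in Low. Low replicate 1 held the highest level and Low replicate 2 the lowest of all 9 libraries. The log2 fold change of High against Low was -0.18 (95% interval -0.67 to 0.30; limma adjusted p = 0.565). It was 0.10 without Low replicate 1 (adjusted p = 0.522) and -0.40 without Low replicate 2 (adjusted p = 0.153), and after the length correction it was -0.38 and passed (adjusted p = 0.0206).

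Depdc5, the GATOR1 subunit, was at 58.9, 52.99 and 50.6 normalized counts in High, at 59.6, 52.6 and 58.1 in Medium and at 57.1, 35.2 and 44.9 in Low, with overlap between all populations. Its log2 fold change was 0.26 (95% interval -0.08 to 0.60; limma adjusted p = 0.222), 0.43 without Low replicate 1 (adjusted p = 0.0126), 0.09 without Low replicate 2 (adjusted p = 0.625) and 0.04 after the length correction (adjusted p = 0.603). Depdc5 (ENSMUSG00000037426) lies on chromosome 5 from 32863701 to 32994236, with a longest transcript of 8216 nt.

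**Figure D3:**
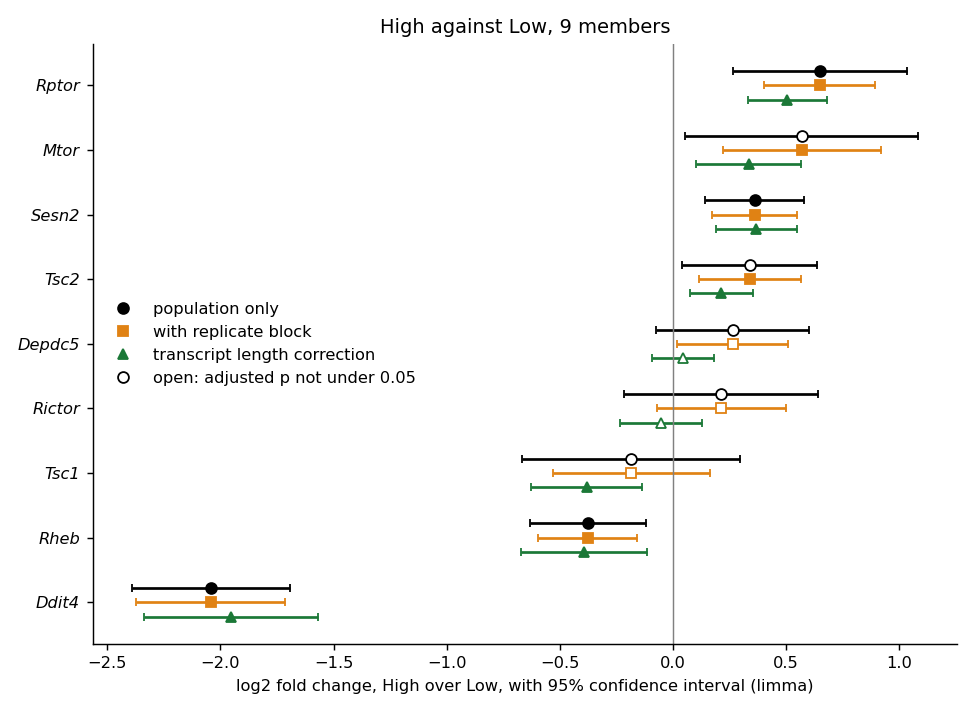
Log2 fold change of High over Low (x axis, with 95% confidence intervals from limma) for the 9 genes, in the fit by population only, with the replicate number as a block, and after a correction for transcript length. Open symbols did not reach adjusted p under 0.05. Ddit4 lay at -2.04, -2.04 and -1.95 in the 3 fits, and Mtor and Tsc2 passed with the block and with the length correction but not in the first fit.

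The 6 long genes were set beside the transcript length trend of the libraries. In Low replicate 2, where long transcripts were lowest, Mtor stood 0.86 below its own mean on the log2 scale, Rictor 0.55 below and Tsc1 0.39 below, and the other 3 also lay below their means. Of the shorter members, Sesn2 (3475 nt) also lay 0.43 below its mean in that library. Rheb (4046 nt) lay 0.45 above and Ddit4 (1755 nt) 0.88 above. In Low replicate 1, where long transcripts were high, Mtor stood 0.21 above its mean, Rictor 0.26 above and Tsc1 0.62 above, while Rptor was at its mean (-0.0013). In High replicates 2 and 3, where the trend was slightly negative, Rptor lay 0.13 and 0.18 above its mean, and Mtor and Tsc2 were also above theirs. Tsc1 was below its mean in both (-0.29 and -0.17). Rictor was at -0.12 and 0.05 from its mean in these libraries, and Depdc5 at 0.04 and -0.03. With the trend removed from each library, 7 of the 9 genes passed for High against Low, beside 38.2% of all genes. These were Rptor, Mtor, Sesn2 and Tsc2 as higher and Ddit4, Rheb and Tsc1 as lower. Rptor then had a log2 fold change of 0.51 (limma adjusted p = 0.000764), Sesn2 of 0.37 (0.00521), Rheb of -0.39 (0.0320) and Ddit4 of -1.95 (2.10e-05).

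**Figure D4:**
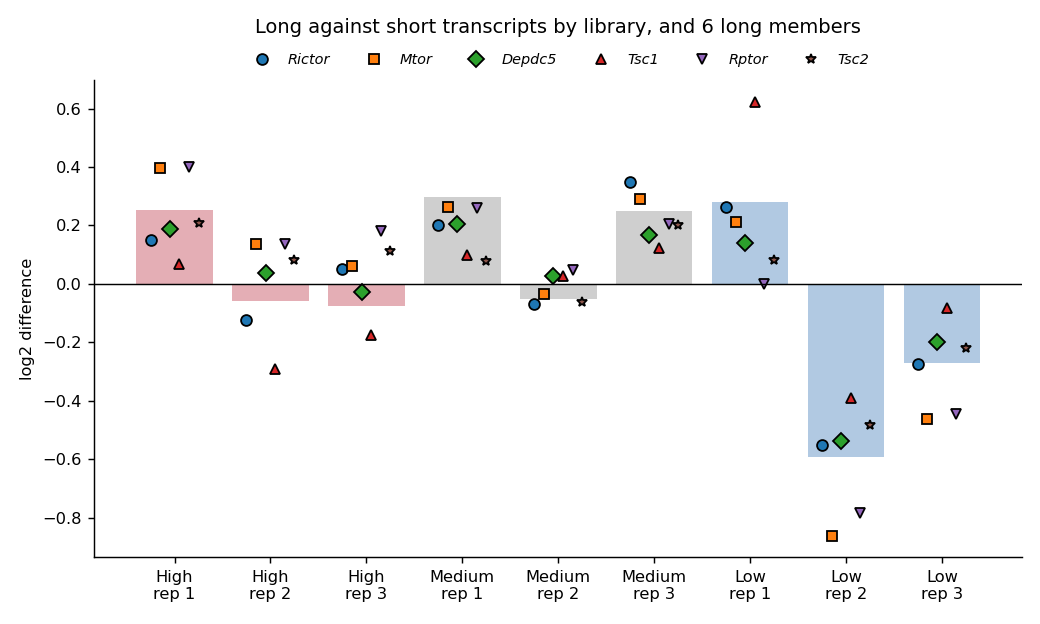
Bars give, for each library, the median log2 difference between genes with long and short transcripts, each gene taken from its mean over the 9 libraries. Points give the log2 deviation of the 6 genes with transcripts of at least 6266 nt from their own means. The bar of Low replicate 2 lies at -0.59, and all 6 genes lie below 0 in that library.

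In the upper step of the range, High against Medium, Ddit4 was the 1 member that passed, beside 0.407% of all genes (0.0815% as higher, 0.326% as lower). High was 1.92-fold lower than Medium (log2 fold change -0.90, SE 0.16; limma adjusted p = 0.0489). This call was narrow. It was lost without High replicate 1 or 2, without any Medium library and without Low replicate 3, with adjusted p from 0.108 to 0.205, and after rescaling all libraries to an equal total (0.0565) or quantile normalization (0.0523). The other 8 had log2 fold changes from -0.22 in Tsc1 to 0.07 in Rptor. Their 95% intervals ran from -0.70 at the lowest, in Tsc1, to 0.54 at the highest, in Mtor. The narrowest was that of Sesn2 (-0.16 to 0.27). Changes within a gene's own interval are not excluded. Ddit4 was also the 1 member whose High and Medium libraries did not overlap, against 20.1% of all genes (9.34% as higher, 10.8% as lower).

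In the lower step, Medium against Low, Ddit4 again was the 1 member that passed, beside 12% of all genes (6.14% as higher, 5.87% as lower). Medium was 2.27-fold lower than Low (log2 fold change -1.14, SE 0.16; limma adjusted p = 0.00268), and the call held under all 26 alternatives. Rptor had a log2 fold change of 0.58 (adjusted p = 0.0553), Sesn2 of 0.31 (0.0675) and Rheb of -0.32 (0.0913). The Medium and Low libraries did not overlap for these 3 genes and Ddit4, against 29.6% of all genes (14.5% as higher, 15.1% as lower). Without Low replicate 1, 8 of the 9 passed, all but Tsc1, beside 37.9% of all genes. After the length correction Rptor (0.37, adjusted p = 0.01003), Sesn2 (0.31, adjusted p = 0.0235) and Ddit4 passed. With the replicate number as a block, 5 of the 9 passed, beside 27.1% of all genes. These were Ddit4, Rptor (limma adjusted p = 0.00684), Sesn2 (0.0260), Mtor (0.0321) and Rheb (0.0377).

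Medium was also set against the mean of High and Low on the log2 scale. None of the 9 genes passed, and limma called 0 of all genes (0% of the total), with 766 at an unadjusted p under 0.05; edgeR called 0 and DESeq2 17. Ddit4 departed from the middle by -0.12 (95% interval -0.42 to 0.18), Rptor by 0.26 (-0.08 to 0.59) and Sesn2 by 0.13 (-0.06 to 0.32).

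For each of the 4 genes past the threshold between High and Low, the genes most like it were taken by Pearson r over the 9 libraries, among genes at or above the median level. They share libraries and the sorted populations, so r is given as a description. For Ddit4 they were Pls3, Fgfr2 and Pex6, each at 0.987. For Rptor they were Rbm6 (0.998), Atf6 (0.997) and Ptpn3 (0.997). For Sesn2 they were Lonp1 (0.988), Med25 (0.985) and Srrt (0.984), and for Rheb they were Srsf9 (0.991), Rnf181 (0.990) and Fdps (0.990).

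The relatives of the stress inhibitors also differed in direction between High and Low. Of 5 genes related to TSC, Rheb, DDIT4 and the Sestrins, 1 was higher and 2 were lower, beside 13.8% and 14.6% of all genes. Sesn1, a Sestrin paralog, averaged 33.1 ± 1.58 normalized counts in High and 19.8 ± 1.32 in Low (1.68-fold higher, limma adjusted p = 0.000762). Sesn3 averaged 12.03 ± 0.512 in High and 19.9 ± 3.63 in Low (1.65-fold lower, adjusted p = 0.00425). Ddit4l, the paralog of Ddit4, averaged 4.21 ± 0.618 in High and 8.87 ± 0.918 in Low (2.11-fold lower, adjusted p = 0.000793). So the Sestrin family split 2 against 1, while both DDIT4 paralogs were lower in High. No call for these 3 relatives was lost when any library was left out.

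Of 8 other subunits and assembly factors of the mTOR complexes, 3 were higher in High and 0 lower, beside 13.8% and 14.6% of all genes. Prr5, an mTORC2 subunit, averaged 24.7 ± 1.08 normalized counts in High and 13.2 ± 1.53 in Low (1.87-fold, limma adjusted p = 0.000912). Deptor, an inhibitory subunit of both complexes, averaged 47.6 ± 5.70 in High and 28.8 ± 8.14 in Low (1.65-fold, adjusted p = 0.0123). Telo2, which helps assemble the kinase, was 1.29-fold higher (adjusted p = 0.0213). Without High replicate 1 the calls for Deptor (0.0503) and Telo2 were lost, and that for Telo2 also without 4 other libraries and after rescaling all libraries to an equal total.

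In the arm that senses amino acids, 4 of 23 measured genes were higher in High, 1 was lower and 18 did not pass, a smaller share than the 28.4% of all genes that passed. Fnip2, a partner of folliculin, averaged 72.6 ± 7.20 normalized counts in High and 48.6 ± 10.5 in Low (1.496-fold higher, limma adjusted p = 0.0252). Wdr59, a GATOR2 subunit, was 1.47-fold higher (adjusted p = 0.0205). Nprl3, which joins DEPDC5 in GATOR1, was 1.36-fold lower (adjusted p = 0.0395). Each of these 3 calls was lost in 3 to 6 of the 9 fits that left out a library. That for Wdr59 was also lost in a fit of the 2 populations alone.

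Of 20 genes of the growth factor and AMPK arm, 0 were higher in High and 2 lower, also a smaller share than over all genes. Akt1, the kinase that inactivates the TSC complex, averaged 32.02 ± 2.53 normalized counts in High and 63.3 ± 5.16 in Low (1.98-fold lower, limma adjusted p = 0.000133). Medium lay between, at 45.1 ± 3.48. Prkag2, a regulatory subunit of AMPK, was 1.34-fold lower (adjusted p = 0.00976). Of 18 effectors of mTORC1, 3 were higher and 2 lower, a share close to the 28.4% of all genes. Tfeb, a lysosomal transcription factor held in the cytoplasm by mTORC1, averaged 42.0 ± 4.29 in High and 26.3 ± 0.653 in Low (adjusted p = 0.00107). Larp1, which represses ribosomal protein mRNAs, was 1.46-fold higher (adjusted p = 0.0155). Pdcd4, a translation inhibitor, was 1.63-fold lower (adjusted p = 0.00113) and Ulk1, an autophagy kinase, 1.36-fold lower (adjusted p = 0.0148). The call for Larp1 was lost without High replicate 1 or Low replicate 3 and that for Ulk1 without High replicate 3, with adjusted p up to 0.0639.

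Ddit4 is known to be induced by p53, by hypoxia and by ATF4, and genes of each response were examined beside it. Of 13 measured genes of the p53 list, which includes Trp53, 9 were lower in High, 0 were higher and 4 did not pass, with a median log2 fold change of -0.78. Over all genes 14.6% were lower and 13.8% higher in this comparison, which is the background for the 2 lists that follow as well. Perp averaged 12.3 ± 1.47 normalized counts in High and 45.7 ± 5.004 in Low (3.71-fold lower, limma adjusted p = 2.06e-05), and Phlda3, Trp53inp1 and Btg2 were 3.08-fold, 2.40-fold and 2.52-fold lower. Sesn1 and Sesn2 are known p53 targets too, and both were higher in High. Trp53 had a log2 fold change of -0.03 (adjusted p = 0.817).

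Of 15 measured hypoxia response genes, 8 were lower in High, 2 were higher and 5 did not pass, with a median of -0.42. Bnip3, a mitophagy receptor, averaged 25.2 ± 1.84 normalized counts in High and 60.0 ± 8.30 in Low (2.38-fold lower, limma adjusted p = 0.000165). The collagen prolyl hydroxylases P4ha2 and P4ha1 were 2.22-fold and 2.03-fold lower, and Ankrd37 was 2.40-fold lower, with its call lost without High replicate 2 or 3 or Low replicate 3 and after the length correction. Hif1a had a log2 fold change of -0.14 (adjusted p = 0.362). Of 16 genes of the ATF4 response, 7 were lower, 1 was higher and 8 did not pass, with a median of -0.36. Cebpb averaged 4.14 ± 0.341 in High and 14.8 ± 3.53 in Low (3.58-fold lower, adjusted p = 0.000155) and Ddit3 was 1.79-fold lower (adjusted p = 0.0167). Atf3 was 2.98-fold lower at low levels, of 0.407 ± 0.258 in High and 1.21 ± 0.396 in Low (adjusted p = 0.0450). Cth, which makes cysteine, was 1.55-fold higher (adjusted p = 0.00219), and Atf4 had a log2 fold change of 0.11 (adjusted p = 0.588). The call for Ddit3 was lost without High replicate 2 or Low replicate 3. That for Atf3 was lost without any of 4 libraries, with a pseudocount of 4 CPM, with quantile normalization and in a fit of the 2 populations alone. Over the alternatives run for High against Low, the number called ran from 7 to 10 for the p53 list, 8 to 14 for the hypoxia list and 4 to 11 for the ATF4 list, and from 1 to 10 for the amino acid sensing arm, 2 to 9 for the growth factor and AMPK arm, 3 to 8 for the effectors and 1 to 6 for the subunits. Over the same alternatives the share called over all genes ran from 17.0% (without Low replicate 3) to 58.2% (sample weights estimated gene by gene). Whether the p53, hypoxia or ATF4 response bears on Ddit4 was not tested.

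The same lists were counted in the separate steps of the range. For High against Medium, 0 genes passed in 7 of the 8 lists and 1 was lower in the p53 list (Ccng1, named after its value was seen). The share over all genes in that step was 0.407%. For Medium against Low, 12% of all genes passed, 6.14% as higher and 5.87% as lower. Of 13 measured genes of the p53 list, 7 were lower and 0 higher. Of 15 of the hypoxia list 5 were lower and 2 higher, and of 16 of the ATF4 list 2 were lower and 1 higher. In the same step 2 of the 8 other complex subunits were higher (Prr5 and Deptor), as was 1 of the 5 relatives (Sesn1). The amino acid sensing arm had 3 of 23 higher and 0 lower. The growth factor and AMPK arm had 2 of 20 higher and 1 lower (Akt1). The effectors had 2 of 18 higher (Tfeb and Larp1) and 1 lower (Pdcd4).

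**Figure D5:**
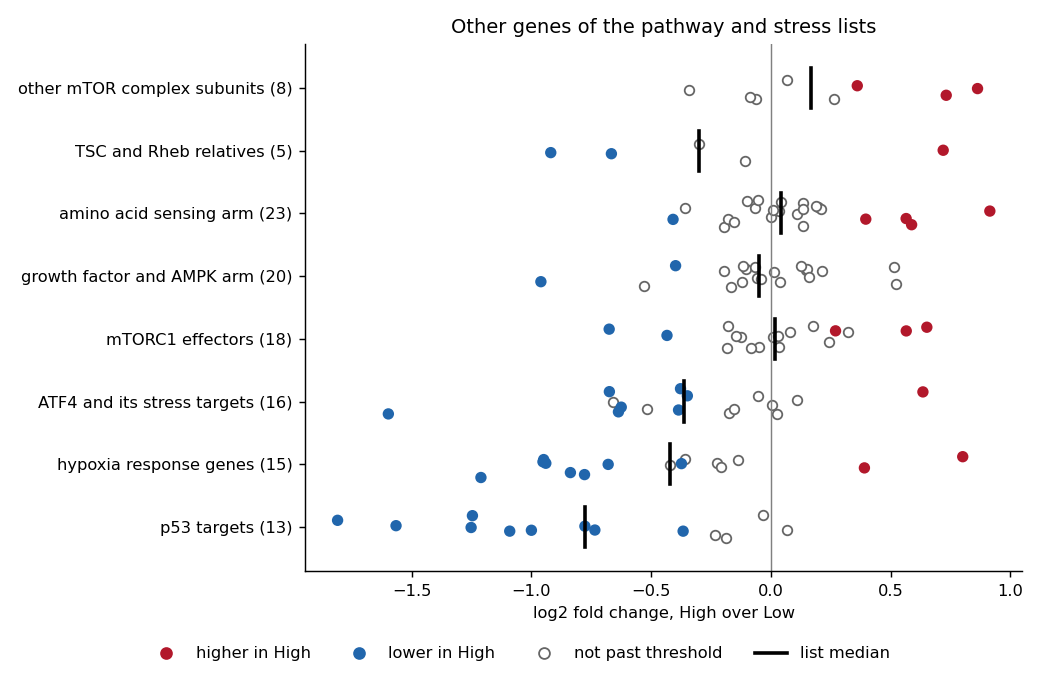
Log2 fold change of High over Low (x axis) for the measured genes of 8 lists (number measured in brackets), with the 9 genes described above left out. Filled points passed adjusted p under 0.05 (limma) and black bars are list medians. The median is -0.78 for p53 targets, -0.42 for hypoxia response genes and -0.36 for ATF4 and its targets, against 0.02 for mTORC1 effectors and 0.04 for the amino acid sensing arm.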

How the data were processed

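Per the labels' protocols, the 9 libraries (3 each of High, Medium and Low) were read single-end at 61 nt. Tools listed in the submitters' processing notes are RSEM 1.17, cutadapt, Picard and limma. The genome build, annotation and use of strand were not given in the sources available. What the authors deposited is 1 normalized signal per gene and library, that is gene counts divided by a factor of each library. These values were in 100% of cases whole multiples of the value of 1 read (tolerance 0.001 read), and edgeR 4.0.16 and DESeq2 1.42.0 on these recovered reads called 3665 and 3870 genes for High against Low. Replicates differed by more than counting noise. Intervals are those of the fits.

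In R 4.3.3, limma 3.58.1 was fitted with its trended prior to log2 of the signal plus 1 CPM of each library's total, with population as the only term, all 9 libraries and Benjamini-Hochberg adjustment over 13499 genes, with a threshold of 0.05. Genes needed 1 CPM in 3 libraries, which all did. Fold changes on that scale understate the change of low genes, and folds given as ratios are of mean values. Scripts were tested on simulated data.

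Coordinates, exons and transcript lengths came from GENCODE M21 (GRCm38), where 13412 identifiers (99.36%) were found. Genes with an identifier but no name (85, or 1.71% to 2.53% of the signal) stayed in the tests. The length correction removed a lowess curve (span 0.3) on log2 length from each library. The labels number replicates 1 to 3 in each population. The deposited column headers share these numbers across the populations, as S1H, S1M and S1L for replicate 1. For High and Low, deviations of same-numbered libraries correlated at 0.53, 0.26 and 0.18, above the preset 0.1, so a fit with the replicate block is given where it changes a call; some crossed pairs (0.31 and 0.12) also exceeded 0.1. For High and Medium (0.35, 0.17, -0.04) and Medium and Low (0.24, 0.43, -0.11) the rule was not met.

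The genes and lists were chosen with earlier results of these data known. Named were the 9 genes, up to 4 genes past the threshold with the largest change in each pathway list, and the 3 genes most like each member past the threshold, among named genes at or above the median level. Trp53, Hif1a, Atf4 and Pkd1 were named after their values were seen. A gene that this rule names is not reported here.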

Additional observations from a re-analysis of the deposited data

How the results depend on the processing

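Of 927 values of the 9 genes under the alternatives, 835 kept their direction and side of the threshold, 22 lost a call, 47 gained one and 23 changed sign, none of them called. Genes called for High against Low numbered 3832, 7850 with sample weights estimated gene by gene (added after seeing the data, since the planned weights did not converge) and 6020 with the length correction and replicate block, and 2266 to 5757 with a library left out. Of the 9 genes 4 passed, 8 with sample weights, 7 with the length correction with or without the replicate block, 2 in a fit of the 2 populations alone (22.1% of all genes), and 2 to 8 with a library left out (17.0% to 43.1% of all genes). High against Medium gave 55 genes, 84 with no variance trend, 801 with weights, 170 in a fit of the 2 populations, 203 with the replicate block, 309 with the length correction, 505 with both, 260 by DESeq2, 180 without Low replicates 1 and 2, and 11 to 208 with a library left out; the members called were 1, 0 with rescaling to the same total or quantile normalization, and 0 to 1 with a library left out. Medium against Low gave 1621 genes, 7044 with weights, 656 in a fit of the 2 populations, 3656 with the replicate block, 2742 with the length correction, 3831 with both, and 497 to 5060 with a library left out; the members called were 1, 8 with weights, 5 with the replicate block, 3 with the length correction, 4 with both, 3 by DESeq2 (14.9% of all genes), 4 without Low replicates 1 and 2 (11.8% of all genes), and 1 to 8 with a library left out (3.72% to 37.9% of all genes). For Medium against the mean of High and Low the count of 0 became 1153 with weights, 1 with the replicate block, 2 with the length correction with or without the block, 17 by DESeq2 and 0 to 70 with a library left out; weights called 2 members, and leaving out a library called 0. The Rptor to Rictor difference ran from 0.4161 to 0.4822 with a library left out, and was 0.44 within the replicate block (exact p = 0.25, the smallest value that 3 pairs allow).

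Signs turned for Rictor (High against Low, -0.0532 with the length correction, with or without the block) and Tsc1 (0.1026 without Low replicate 1). For High against Medium they turned for Mtor (-0.0678 with weights, -0.0731 without High replicate 1, -0.0774 without Medium replicate 2), Rptor (-0.0138 without High replicate 1), Tsc2 (-0.008 with weights, -0.0062 without Medium replicate 2), Rheb (0.004 with weights) and Depdc5 (0.0055 with the length correction, with or without the block). For Medium against Low they turned for Tsc1 (-0.0112 with quantile normalization, -0.2367 with the length correction, with or without the block, -0.0354 by edgeR, -0.025 by DESeq2, -0.188 without Low replicate 2, -0.0346 without Low replicate 3). For Medium against the mean of High and Low they turned for Tsc1 (-0.0463) and Tsc2 (-0.0188), both with the length correction, with or without the block. With a library left out, these values ran from -0.4037 to 0.1026 for Tsc1 in High against Low and from -0.188 to 0.3183 in Medium against Low, and in High against Medium up to 0.0953 for Mtor, 0.119 for Rptor and 0.1259 for Tsc2. The causes were not tested. With Low replicates 1 and 2 out, the lone Low library is assumed to vary like the other populations. Apart from the calls for Mtor and Tsc2 given above, the block changed no other call of the 9 genes for High against Low.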
